A study of Mus musculus with 6 samples.

Results

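The enzyme families that oxidise and conjugate small molecules were examined in the mouse oviduct: cytochrome P450s (Cyp), UDP-glucuronosyltransferases (Ugt), sulfotransferases (Sult) and aldehyde dehydrogenases (Aldh). Members were set by a rule on gene symbols: Cyp with family number, letter and number, or Ugt, Sult or Aldh followed by a digit. Earlier results of these data were known when the members were chosen. Symbols marked as pseudogenes (-ps) were left out, as were Cyp26a1, Cyp2j11, Aldh1a1, Aldh1a2 and Aldh1a3. This gave 158 members of 55363 symbols, with 97 Cyp, 22 Ugt, 21 Sult and 18 Aldh symbols. One of them, Cyp4x1os, is annotated as an antisense RNA and not as an enzyme, and it was listed at 0 in all 6 libraries. Whole oviducts came from females 6 to 8 weeks old, mated with fertile males and killed on gestational day 3, counting the day of the vaginal plug as day 1. There were 3 libraries labelled Mettl3 f/f and 3 labelled Mettl3 d/d, and the study compared these genotypes. Libraries are named by group and replicate number, as f/f 1. Mettl3 encodes the catalytic subunit of the RNA N6-methyladenosine writer, f/f usually denotes a floxed allele and d/d the deleted form of it. Neither the Cre driver, nor the cells it acts in, nor the deleted exons are stated in the sources read here.

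Values are taken to be FPKM, fragments scaled by transcript length and by library size, an inference from their size and steps. On that reading levels can be compared between genes. The lowest steps of the values implied 16600000 to 17800000 fragments per library, at which 1 FPKM stands for 33.2 to 35.6 fragments in a transcript of 2000 nt. Mettl3 itself was at 11.8 to 13.2 FPKM across f/f and at 19.8 to 24.5 in d/d, so its level does not verify the labels, and every direction here is that of the libraries labelled d/d. Secretory (Ovgp1), ciliated (Foxj1) and smooth muscle (Myh11) markers were all present. Summed macrophage markers were at 301 to 368 FPKM across f/f and 817 to 1084 in d/d. By the test used below 6 of 7 rose, where 6.04% of all features did. The remaining marker, Cd163, did not pass and lay the other way, at 3.57, 2.11 and 2.54 FPKM across f/f and 1.69, 1.43 and 1.26 in d/d. Summed smooth muscle markers were at 2109 to 5098 FPKM across f/f and 2635 to 4303 in d/d, with 1 of 6 past the test, Des, which was lower in d/d (178, 314 and 364 against 140, 86.3 and 106). None of 7 ciliated cell markers passed, and their sums were at 313 to 798 in f/f and 92.2 to 458 in d/d. In library f/f 1 the smooth muscle sum was the lowest and the ciliated sum the highest of the 6 libraries. Summed markers of the uterine end of the tract, mostly Hoxa10, were at 4.98, 30.2 and 27.5 FPKM across f/f. In d/d they were at 5.83, 12.5 and 19.0, and neither of the 2 tested passed. They were thus lowest in libraries f/f 1 and d/d 1. Summed secretory markers were at 4666 to 6018 FPKM across f/f and 2949 to 5411 in d/d, with 1 of 6 past the test in each direction. The share of summed FPKM in mitochondrially encoded genes was 4.47%, 5.70% and 3.61% across f/f, all below the 6.50%, 6.76% and 9.70% of d/d. The part of these markers and of this share in the differences below was not tested. In whole tissue, fewer cells of a type and less RNA per cell cannot be told apart.

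These enzymes are the classical pathway of detoxification, and they also set the local level of hormones and other signals. P450s insert oxygen into steroids, sterols, fatty acids and foreign compounds, taking electrons from partner proteins such as cytochrome P450 reductase. Aldehyde dehydrogenases oxidise reactive aldehydes to acids, and several of them carry out single steps of amino acid breakdown. Sulfotransferases and glucuronosyltransferases then add a charged group, which in the reproductive tract is one way that estrogens are inactivated.

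Most members were at or near 0 in the oviduct. Of the 158, 57 were listed at 0 in all 6 libraries, and 55 more had a mean under 1 FPKM over the 6 libraries and were not tested. The tested members were the 46 with a mean of at least 1, namely 23 Cyp, 14 Aldh, 5 Sult and 4 Ugt genes. Few members of the families best known from liver reached that mean. Of these, 0 of 9 Cyp3a and 0 of 10 Ugt2 members were tested, and 4 of the 35 members from Cyp2a to Cyp2g were. Those 4 included Cyp2f2 and Cyp2d22, at means of 61.1 and 21.8 FPKM over the 6 libraries. Summed liver markers were at 0.217 to 2.05 FPKM per library, with the transport protein gene Ttr listed at 0 throughout. Sult1e1, the estrogen sulfotransferase gene, and Cyp17a1, an enzyme of androgen synthesis, were listed at 0 in every library. The most abundant member was Aldh2, the mitochondrial dehydrogenase that clears acetaldehyde, with a mean of 283 FPKM over the 6 libraries. It was followed by Aldh7a1 (99.7), Cyp1b1 (77.8), Aldh18a1 (65.3), Cyp2f2 (61.1) and Ugt1a6a (46.9).

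No member rose in the libraries labelled d/d and 10 fell, 5 of them aldehyde dehydrogenases. These were Aldh1l1, Aldh3a2, Aldh4a1, Aldh6a1 and Aldh7a1, the P450s Cyp1b1, Cyp27a1 and Cyp4f15, and the sulfotransferases Sult1a1 and Sult5a1. The 10 are 21.7% of the 46 tested, where 4.97% of all 15438 features tested fell and 6.04% rose (limma on log2(FPKM + 1), adjusted p under 0.05 over all features). At an unadjusted p under 0.05 the members counted 2 higher and 15 lower, where 15.4% of all features were higher and 14.2% lower at that threshold. The median log2 change, d/d minus f/f, was -0.36 over the 46 and -0.01 over all features, with 33 members below 0 and 13 above. All 3 d/d values lay below all 3 f/f values in 16 members, against 17.4% of all features, and above them in 4, against 18.1%.

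**Figure D1:**
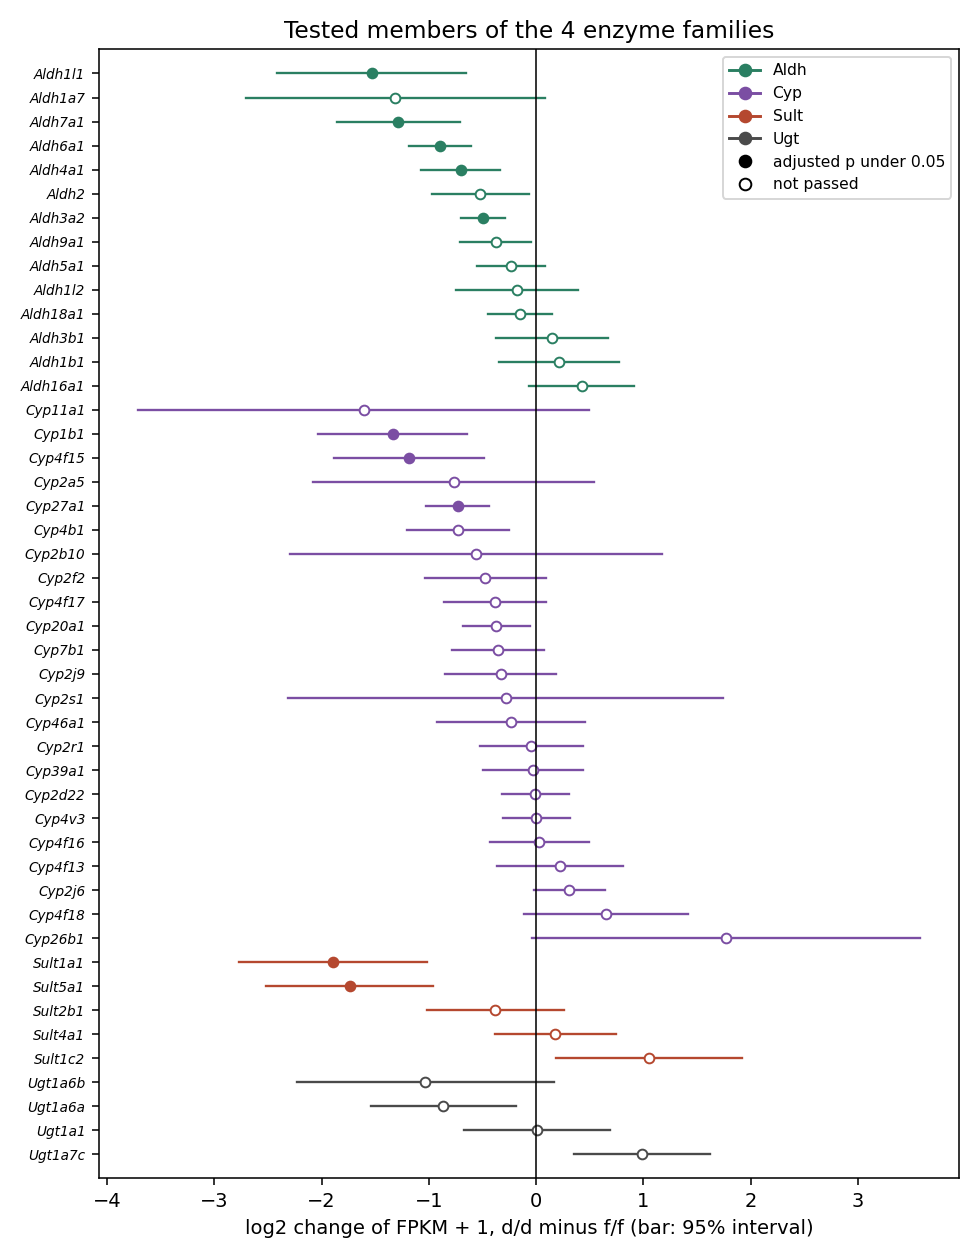
Log2 change of FPKM + 1, d/d minus f/f, for the 46 tested members (horizontal axis) by family, with 95% intervals. Filled points are the 10 members past adjusted p under 0.05, all of them to the left of 0, and open points did not pass.

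The number that fell depended on single libraries. It was 11 without library f/f 1, 7 without library d/d 1, 2 without library f/f 3 or library d/d 2, and 1 without library f/f 2 or library d/d 3. Each such fit has fewer libraries, and over all features the number passing ranged from 308 to 1795, against 1701 with every library. The 11 without library f/f 1 lacked Cyp1b1 (limma adjusted p = 0.0538) and Cyp4f15 (0.0980) and took in Aldh1a7, Aldh9a1 and Ugt1a6a. Cyp26b1 passed as higher in that fit. The log2 change of the 10 stayed below 0 in each fit. Aldh6a1 kept its call without any single library (limma adjusted p = 0.0114 to 0.0461). Cyp27a1 and Sult5a1 kept it in 3 of the 6 such fits, Aldh7a1 and Sult1a1 in 2, and the other 5 in 1 each. With no filter on low values, so that more features were tested, 4 of the 10 passed (Aldh3a2, Aldh6a1, Aldh7a1 and Cyp27a1). The other 6 missed the threshold there (limma adjusted p = 0.0545 to 0.0934). Among the 10 genes, library f/f 1 was the lowest f/f library for 6, and library d/d 1 the highest d/d library for 8.

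**Figure D2:**
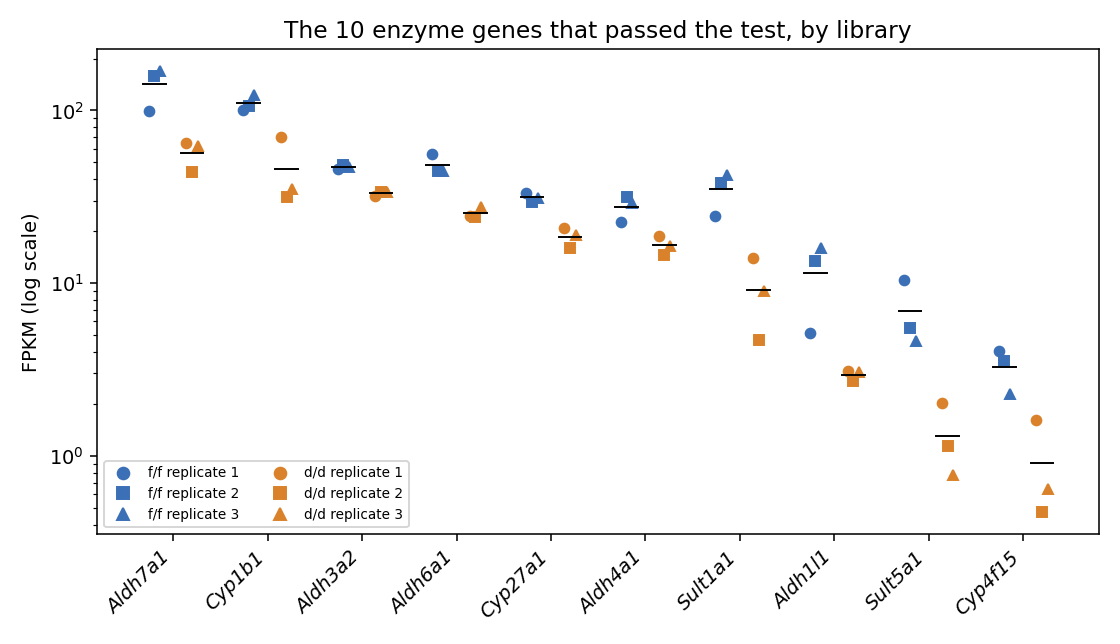
FPKM on a log scale in each of the 6 libraries for the 10 members that passed the test, with f/f in blue, d/d in orange and short black lines at the group means. No f/f value overlaps a d/d value in any of the 10, and library d/d 1 is the highest d/d library for 8 of them. The 10 were picked by a test of these same values, so the lack of overlap adds no support. In 17.4% of all features tested, all 3 d/d values lie below all 3 f/f values.

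The promoters of 4 of these genes are shown because the genes fell together, and because they differ in the short motifs they hold for factors known to control such enzymes. Aldh6a1 has 2 windows, of which the one at its annotated start is shown. The windows run from 250 bases before to 50 after the RefSeq start of GRCm38.p6, 5′ to 3′ on the gene's strand. Capitals mark GCGTG or its reverse CACGC, the core bound by the aryl hydrocarbon receptor with Arnt, and AGAACA or its reverse TGTTCT, a short site of the progesterone and glucocorticoid receptors. No 2 marked sites overlap.
Aldh6a1 (chr12:84450975-84451274, minus strand): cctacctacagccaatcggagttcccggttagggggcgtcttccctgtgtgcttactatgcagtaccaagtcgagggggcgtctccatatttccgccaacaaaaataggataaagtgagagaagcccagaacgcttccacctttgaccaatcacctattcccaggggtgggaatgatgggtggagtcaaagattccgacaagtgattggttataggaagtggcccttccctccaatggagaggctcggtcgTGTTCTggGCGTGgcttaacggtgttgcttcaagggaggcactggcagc
Cyp1b1 (chr17:79715012-79715311, minus strand): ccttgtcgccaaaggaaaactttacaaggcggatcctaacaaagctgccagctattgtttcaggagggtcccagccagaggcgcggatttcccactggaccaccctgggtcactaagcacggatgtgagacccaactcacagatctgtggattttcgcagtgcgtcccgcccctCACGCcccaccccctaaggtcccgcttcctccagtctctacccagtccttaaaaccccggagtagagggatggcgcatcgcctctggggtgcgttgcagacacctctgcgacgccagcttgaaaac
Cyp27a1 (chr1:74713285-74713584, plus strand): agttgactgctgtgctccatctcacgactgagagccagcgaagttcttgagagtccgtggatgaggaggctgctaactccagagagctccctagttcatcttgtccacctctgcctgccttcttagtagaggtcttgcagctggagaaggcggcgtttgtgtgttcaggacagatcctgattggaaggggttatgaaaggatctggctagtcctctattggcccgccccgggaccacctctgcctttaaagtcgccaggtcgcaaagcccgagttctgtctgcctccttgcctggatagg
Sult1a1 (chr7:126676369-126676668, minus strand): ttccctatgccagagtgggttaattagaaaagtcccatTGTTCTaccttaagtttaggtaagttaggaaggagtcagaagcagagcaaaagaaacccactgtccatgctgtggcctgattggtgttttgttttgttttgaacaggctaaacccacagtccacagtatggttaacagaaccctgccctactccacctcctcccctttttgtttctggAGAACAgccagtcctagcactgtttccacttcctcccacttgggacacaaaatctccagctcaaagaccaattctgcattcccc
Windows were found for 124 members and for 9 of the 10 that fell, all but Aldh7a1. The GCGTG core stood in a window of 4 of the 9 (Aldh3a2, Aldh4a1, Aldh6a1 and Cyp1b1) and in 32.4% of all 32851 windows of the table. The AGAACA site stood in a window of 2 (Aldh6a1 once and Sult1a1 at 2 places) and in 19.0% of all windows. TGACNNNGC, the core of the sites of the antioxidant factor Nfe2l2, or its reverse GCNNNGTCA, stood in none of the 9 and in 12.4% of all windows. The 10 genes shared no chromosome cluster: their loci lay on chromosomes 1, 4, 6, 7, 8, 11, 12, 17 and 18, with only Cyp1b1 and Cyp4f15 on the same chromosome.

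The aldehyde dehydrogenases that fell are mostly single steps of amino acid, folate and lipid metabolism. Aldh6a1 encodes methylmalonate semialdehyde dehydrogenase, of valine and pyrimidine breakdown (ENSMUSG00000021238; chromosome 12, 84430717 to 84451004, minus strand of GRCm38). It was at 55.7, 44.7 and 44.9 FPKM in libraries f/f 1 to 3 and at 24.5, 24.3 and 27.6 in libraries d/d 1 to 3. Both groups were tight and far apart, and the fall was 1.90-fold, between means of 48.4 ± 6.34 and 25.4 ± 1.85 FPKM (SD, n = 3 per group; log2 change -0.90, SE 0.12, limma adjusted p = 0.0105). Bbof1, a gene on the opposite strand whose span overlaps, was at 6.15 ± 3.32 FPKM across f/f and 2.48 ± 1.46 across d/d (SD, n = 3 each), below Aldh6a1 in every library.

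Aldh7a1, which oxidises the semialdehyde of lysine breakdown, was the most abundant member that fell. It was at 99.4, 159 and 168 FPKM across f/f and at 65.0, 43.9 and 62.3 in d/d. The groups did not overlap, with library f/f 1 the lowest of its group, and the fall was 2.49-fold (log2 change -1.29, SE 0.24, limma adjusted p = 0.0227). The call held without library f/f 1 or library d/d 1 and was lost when any of the other 4 libraries was left out (adjusted p = 0.0634 to 0.0884). Phax, a gene of small nuclear RNA export on the opposite strand with an overlapping span, went the other way, from 25.5 ± 0.315 to 48.6 ± 0.227 FPKM (SD, n = 3 per group; limma adjusted p = 0.00395). Aldh4a1 (chromosome 4, 139622866 to 139649690, plus strand), the second enzyme of proline breakdown, was at 22.6, 31.4 and 29.1 FPKM across f/f and at 18.7, 14.5 and 16.4 in d/d. The nearest values of the groups were library f/f 1 and library d/d 1, and the fall was 1.67-fold (log2 change -0.70, SE 0.16, limma adjusted p = 0.0366). Leaving out any library except f/f 1 ended the call (adjusted p = 0.0579 to 0.126). Of its transcript 50-mers, 30.0% also stand in Gm21969, a gene model over the same locus that was listed at 0 in every library.

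Aldh1l1 encodes the cytosolic formyltetrahydrofolate dehydrogenase, which oxidises formyl groups carried by folate (chromosome 6, 90486427 to 90600203, plus strand). It was at 5.11, 13.4 and 16.0 FPKM across f/f and at 3.10, 2.70 and 3.06 in d/d. The d/d libraries were nearly alike, whereas library f/f 1 was well below the other f/f libraries, and the fall was 3.90-fold (log2 change -1.53, SE 0.37, limma adjusted p = 0.0462). Leaving out any library except f/f 1 ended the call (adjusted p = 0.102 to 0.147), as did quantile normalization (0.0583). Its mitochondrial counterpart Aldh1l2 was at 1.86 ± 0.683 FPKM across f/f and 1.48 ± 0.155 across d/d (SD, n = 3 per group; limma adjusted p = 0.662). Aldh3a2, the microsomal fatty aldehyde dehydrogenase, showed little spread, at 46.1, 48.4 and 46.8 FPKM across f/f and at 32.0, 33.7 and 33.7 in d/d. It fell 1.42-fold with no overlap (chromosome 11, 61223417 to 61267464, minus strand; log2 change -0.49, SE 0.09, limma adjusted p = 0.0183), and leaving out any library except f/f 1 again ended the call (adjusted p = 0.0523 to 0.0872).

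The other 9 tested aldehyde dehydrogenases did not pass. Aldh2 was at 291, 332 and 373 FPKM across f/f and at 297, 192 and 213 in d/d, with library d/d 1 inside the f/f range (log2 change -0.52, 95% interval -0.97 to -0.07, limma adjusted p = 0.127). It passed under quantile normalization (limma adjusted p = 0.0369) and without both libraries numbered 1 (0.0354). Aldh9a1, of carnitine synthesis, was at 41.6 ± 6.52 FPKM across f/f and 31.5 ± 2.41 across d/d (SD, n = 3 per group; limma adjusted p = 0.132), with a pass without library f/f 1 (0.0355). Aldh18a1, of proline synthesis, was at 68.7 ± 5.58 and 61.8 ± 7.74 (adjusted p = 0.452). The 95% interval of the log2 change of Aldh18a1 ran from -0.45 to 0.14. The mitochondrial Aldh1b1 (log2 change 0.21, 95% interval -0.35 to 0.77) and Aldh3b1 (0.15, -0.37 to 0.67) did not pass. Aldh16a1 was the member of this family with the highest log2 change, 0.43, with 16.3, 15.6 and 11.8 FPKM across f/f and 17.6, 16.6 and 26.3 in d/d (limma adjusted p = 0.221). Aldh5a1, of the breakdown of the transmitter GABA, was at 5.43 ± 0.406 FPKM across f/f and 4.47 ± 0.319 across d/d (SD, n = 3 each), with no overlap but no pass (limma adjusted p = 0.295). Aldh1a7 was at 1.77, 10.3 and 9.61 FPKM across f/f and at 3.47, 1.10 and 1.31 in d/d, where library f/f 1 lay among the d/d values (limma adjusted p = 0.191). Without that library Aldh1a7 passed as lower (log2 change -1.97, limma adjusted p = 0.0224). Summed over the 18 Aldh symbols, the level was 674, 789 and 838 FPKM across f/f and 586, 440 and 508 in d/d. Every d/d library lay below every f/f library, and the most abundant contributor, Aldh2, did not pass by itself.

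**Figure D3:**
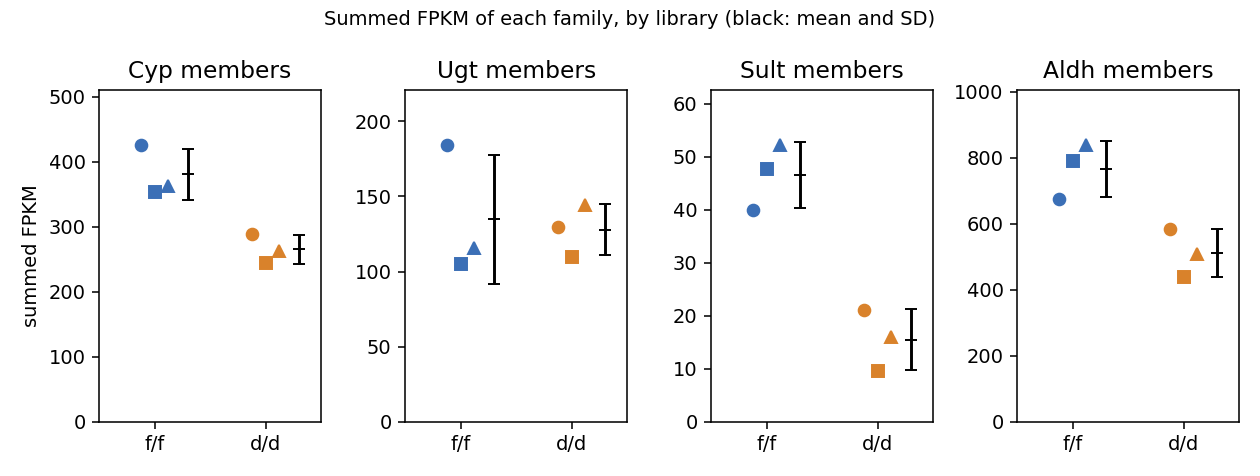
Summed FPKM of the Cyp, Ugt, Sult and Aldh members in each library (vertical axes from 0), f/f in blue and d/d in orange, with the mean and SD of each group in black. The groups do not overlap for the Cyp, Sult and Aldh sums, and they overlap for the Ugt sum.

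Among the P450s, Cyp1b1 was the most abundant and fell. It hydroxylates estradiol and other substrates and is a classical target of the aryl hydrocarbon receptor (chromosome 17, 79701537 to 79715061, minus strand). It was at 101, 107 and 123 FPKM across f/f and at 70.6, 31.6 and 35.0 in d/d. The groups did not overlap, library d/d 1 lay between the f/f libraries and the other d/d libraries, and the fall was 2.40-fold (log2 change -1.34, SE 0.29, limma adjusted p = 0.0349). Leaving out any library except d/d 1 ended the call (adjusted p = 0.0538 to 0.110). Its relative Cyp1a1, the best known target of the same receptor, had a mean under 1 FPKM over the 6 libraries and was not tested. It was at 0.856, 1.57 and 1.78 FPKM across f/f and at 0.441, 0.534 and 0.752 in d/d, which do not overlap.

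Of the enzymes of cholesterol and oxysterol turnover, 1 of 4 tested fell, where 4.97% of all features fell. Cyp27a1, the mitochondrial sterol hydroxylase of bile acid and oxysterol synthesis (chromosome 1, 74713574 to 74737892, plus strand), was at 33.3, 29.6 and 31.1 FPKM across f/f and at 20.8, 16.0 and 18.9 in d/d. The groups were well apart, and the fall was 1.69-fold (log2 change -0.73, SE 0.12, limma adjusted p = 0.0169). The call was lost without library f/f 2 (adjusted p = 0.0621), library f/f 3 (0.0622) or library d/d 3 (0.0540). The oxysterol hydroxylases Cyp39a1 and Cyp7b1 did not pass, with log2 changes of -0.03 (95% interval -0.49 to 0.44) and -0.35 (-0.78 to 0.08). Cyp46a1, the brain cholesterol hydroxylase, was at 2.12 ± 0.887 FPKM across f/f and 1.64 ± 0.685 across d/d (SD, n = 3 each).

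Of 7 tested Cyp4 genes, which mostly encode fatty acid hydroxylases, 1 fell, where 4.97% of all features fell. Cyp4f15 was at 4.02, 3.52 and 2.29 FPKM across f/f and at 1.61, 0.472 and 0.645 in d/d, with library d/d 1 the nearest to f/f. The fall was 3.61-fold, and 5.87-fold without library d/d 1 (log2 change -1.19, SE 0.29, limma adjusted p = 0.0487). The call was lost with a pseudocount of 0.1 (adjusted p = 0.0545), with quantile normalization (0.0543) and when any library except d/d 1 was left out (0.0792 to 0.154). Its neighbours in the Cyp4f cluster of chromosome 17 did not pass. Cyp4f13 was at 18.5 ± 2.81 FPKM across f/f and 22.5 ± 8.46 in d/d, and Cyp4f16 at 7.17 ± 1.73 and 7.28 ± 1.17 (SD, n = 3 each). Cyp4b1, which acts on fatty acids and foreign compounds in lung, was at 6.24, 7.36 and 9.34 FPKM across f/f and at 4.71, 3.20 and 4.76 in d/d, with no overlap (log2 change -0.73, 95% interval -1.20 to -0.25, limma adjusted p = 0.0635). Cyp4f17 was at 5.45 ± 0.650 FPKM across f/f and 4.01 ± 1.11 in d/d, and Cyp4v3 at 5.16 ± 0.241 and 5.17 ± 0.448 (SD, n = 3 each). Cyp4f18, which in mouse neutrophils degrades leukotriene B4, was at 2.46, 1.78 and 1.72 FPKM across f/f and at 3.54, 6.25 and 2.10 in d/d (limma adjusted p = 0.227).

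None of the 4 tested members from Cyp2a to Cyp2g passed (limma, and 0 at an unadjusted p under 0.05). Cyp2f2, an epithelial enzyme that activates naphthalene in the mouse airway, was at 94.8, 65.3 and 54.5 FPKM across f/f and at 61.3, 40.2 and 50.5 in d/d, which overlap. Cyp2b10, a classical target of the receptor Nr1i3 in liver, ranged from 0.494 to 6.97 FPKM in f/f and from 0.0743 to 3.48 in d/d (limma adjusted p = 0.649). Cyp2d22 was at 21.8 ± 1.51 FPKM across f/f and 21.8 ± 3.07 across d/d (SD, n = 3 each), with a 95% interval of the log2 change from -0.32 to 0.30. In the Cyp2j cluster on chromosome 4, whose enzymes epoxidise arachidonic acid, Cyp2j6 was at 4.58 ± 0.597 FPKM across f/f and 5.89 ± 0.172 across d/d (SD, n = 3 per group; limma adjusted p = 0.194). Cyp2j9 was at 2.59 ± 0.620 and 1.86 ± 0.462 (adjusted p = 0.359). Cyp2j13 was at 1.06, 1.10 and 0.844 FPKM in f/f and listed at 0 in all 3 d/d libraries. Its mean over the 6 libraries was under 1, so it was not tested. Without the filter on low values it passed (limma adjusted p = 0.0115), and 0.127% of its transcript 50-mers stand in any other gene. The members of few relatives Cyp20a1, whose substrate is not established, and Cyp2r1, a vitamin D hydroxylase, had log2 changes of -0.37 (95% interval -0.69 to -0.06, limma adjusted p = 0.121) and -0.05 (-0.53 to 0.43, adjusted p = 0.904).

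Summed over the 97 Cyp symbols, the level was 425, 353 and 363 FPKM across f/f and 289, 244 and 262 in d/d. The groups did not overlap, and Cyp1b1 was the largest contributor.

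The sulfotransferases had few expressed members, of which the leading pair fell. Sult1a1, which conjugates phenols and estrogens (chromosome 7, 126672865 to 126676432, minus strand), was at 24.5, 37.9 and 42.5 FPKM across f/f and at 13.9, 4.67 and 8.98 in d/d. The groups did not overlap, with library f/f 1 and library d/d 1 the nearest, and the fall was 3.81-fold (log2 change -1.89, SE 0.37, limma adjusted p = 0.0253). The call held without either of these and was lost when any of the other 4 libraries was left out (adjusted p = 0.0515 to 0.0957). Sgf29, on the opposite strand with an overlapping span, was at 11.9 ± 2.34 FPKM across f/f and 15.4 ± 3.89 across d/d (SD, n = 3 each). Sult5a1 (chromosome 8, 123140192 to 123158315, minus strand) was at 10.5, 5.51 and 4.65 FPKM across f/f and at 2.01, 1.14 and 0.770 in d/d. It fell 5.26-fold with no overlap (log2 change -1.74, SE 0.33, limma adjusted p = 0.0229). The call was lost without library f/f 2 (adjusted p = 0.0723), library d/d 2 (0.0745) or library d/d 3 (0.0733). Galnt2l, a gene model on the opposite strand with an overlapping span, was at 9.83, 14.8 and 14.9 FPKM across f/f, listed at 0 in library d/d 1, and at 2.11 and 12.7 in libraries d/d 2 and 3. Whether reads of that strand enter the value of Sult5a1 was not tested.

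The other 3 tested sulfotransferases did not pass. Sult1c2 was at 0.355, 0.248 and 0.258 FPKM across f/f and at 0.805, 1.36 and 3.44 in d/d, all above f/f, with a wide d/d spread (log2 change 1.05, 95% interval 0.19 to 1.92, limma adjusted p = 0.112). The cholesterol sulfotransferase gene Sult2b1 was at 1.37 ± 0.523 FPKM across f/f and 0.810 ± 0.320 in d/d, and the brain-type Sult4a1 at 1.37 ± 0.127 and 1.74 ± 0.656 (SD, n = 3 each). Summed over the 21 Sult symbols, the level was 40.0, 47.7 and 52.2 FPKM across f/f and 21.0, 9.60 and 16.0 in d/d. The mean of the f/f libraries was 3.00-fold that of the d/d libraries, with Sult1a1 the largest contributor in the mean.

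The glucuronosyltransferases came almost wholly from the Ugt1a locus on chromosome 1, where different first exons join a shared set of later exons. None of the 4 tested members passed (limma, with 1 higher and 1 lower at an unadjusted p under 0.05). Of their transcript 50-mers, 52.1% to 79.8% also stand in another gene, so the split of reads between these genes is uncertain. Ugt1a6a, of the phenol-conjugating type, was at 94.8, 46.1 and 45.4 FPKM across f/f and at 30.2, 29.7 and 35.3 in d/d, with no overlap (log2 change -0.86, 95% interval -1.54 to -0.19, limma adjusted p = 0.0987). Ugt1a7c lay the other way, at 20.0, 25.0 and 30.8 FPKM across f/f and 65.9, 34.1 and 56.9 in d/d, also with no overlap (log2 change 0.99, 95% interval 0.36 to 1.62, limma adjusted p = 0.0600). Under other settings, Ugt1a6a passed without library f/f 1 (adjusted p = 0.0413), and Ugt1a7c under quantile normalization (0.0493) or without library d/d 2 (0.0383). Ugt1a6b, a near copy of Ugt1a6a, was at 4.54, 0.494 and 1.12 FPKM across f/f, listed at 0 in library d/d 1, and at 0.285 and 0.594 in libraries d/d 2 and 3 (limma adjusted p = 0.226). Ugt1a1, the bilirubin-conjugating enzyme, was at 63.9, 31.3 and 35.3 FPKM across f/f and 32.8, 43.1 and 50.6 in d/d (log2 change 0.01, 95% interval -0.68 to 0.69). The sum over the Ugt1a genes was 183, 103 and 114 FPKM across f/f and 130, 108 and 143 in d/d, with overlapping groups. Of the 10 Ugt2 members, Ugt2a2 was the highest, at 0.220, 1.49 and 1.87 FPKM in f/f and listed at 0 in all d/d libraries. As 93.6% of its 50-mers stand in other genes, mostly Ugt2a1, a 0 there may be a failed estimate, and it was not tested.

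Some members varied widely within a group. Of the 46 tested, 7 had an SD over 0.5 of the mean in f/f and 10 in d/d, with 6 in both. Cyp26b1, which breaks down retinoic acid, was at 11.0, 0.431 and 0.791 FPKM across f/f and at 8.63, 9.26 and 11.3 in d/d. The d/d libraries were alike, whereas library f/f 1 stood with them and not with its own group (log2 change 1.77, 95% interval -0.04 to 3.58, limma adjusted p = 0.178). Without library f/f 1 the mean of d/d was 16.0-fold that of f/f and the gene passed as higher (log2 change 2.74, limma adjusted p = 0.00277). Cyp2s1, an epithelial P450, ranged from 3.36 to 34.2 FPKM in f/f and from 3.96 to 23.0 in d/d. Its log2 change of -0.28 (95% interval -2.31 to 1.74) turned to 0.39 without library f/f 1 and 0.31 without library d/d 1.

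Cyp11a1, the first enzyme of steroid synthesis, was high in 1 library. It was at 0.725, 0.208 and 13.5 FPKM in libraries f/f 1 to 3, listed at 0 in libraries d/d 1 and 3, and at 0.0645 in library d/d 2 (limma adjusted p = 0.274). Of the 12 ovary markers, 5 were highest in the same library (Star, Lhcgr, Hsd3b1, Amh and Oosp1), the last pair at under 1 FPKM. Hsd3b1 was at 11.2 FPKM in library f/f 3 and at most 0.321 elsewhere, Star at 7.62 against at most 2.98, and the luteinizing hormone receptor gene Lhcgr at 1.61 against at most 0.0732. The others were not highest there: Inha was at 3.62 FPKM in library f/f 3 and at 3.02 to 5.29 elsewhere, and the luteal gene Akr1c18 and the oocyte gene Zp3 were listed at 0. Summed ovary markers were at 28.7 to 56.7 FPKM across f/f and 39.9 to 42.6 in d/d, mostly from Foxl2, and Fshr was listed at 0 in all libraries. The part of such cells in the Cyp11a1 value was not tested.

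In library f/f 1, Cyp2e1, an enzyme of ethanol and fatty acid oxidation, was at 3.51 FPKM, against 0.501 and 1.07 in libraries f/f 2 and 3 and 0.132, 0.502 and 0.158 in d/d. Cyp2a5 was at 4.56 FPKM there and at 0.738 or less in every other library. Of 6 fat cell markers, 5 were highest in the same library: Adipoq was at 5.86 FPKM, Fabp4 at 10.3 and Cidec at 3.91, against at most 1.58, 2.61 and 0.551 elsewhere, with Plin1 and Lep highest there too. Plin4, the most abundant of the 6 on average, was not, at 3.26 FPKM in library f/f 1 and 5.49 and 5.51 in libraries f/f 2 and 3. Summed adipocyte markers were at 25.3, 6.44 and 9.84 FPKM across f/f and at 4.82, 5.96 and 3.24 in d/d. All 7 ciliated cell markers were also highest in library f/f 1. The part of fat cells or ciliated cells in the P450 values was not tested.

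**Figure D4:**
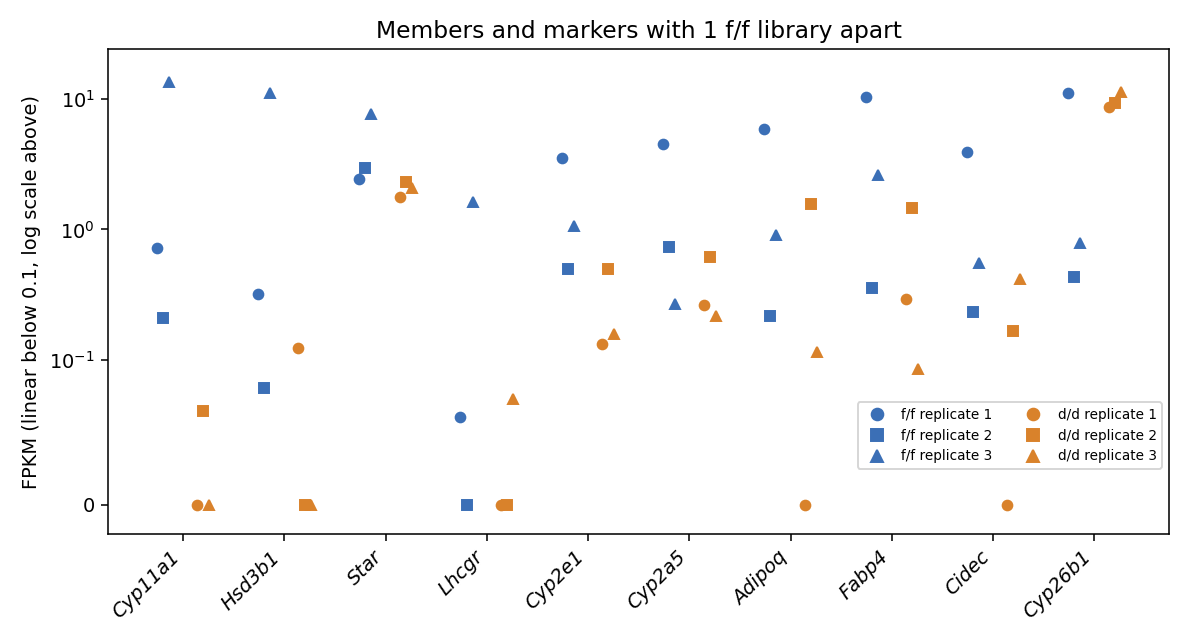
FPKM per library (linear below 0.1 and log above) for members in which 1 f/f library stood apart, with markers of ovarian steroid-making cells and fat cells, f/f in blue and d/d in orange. Cyp11a1, Hsd3b1, Star and Lhcgr are highest in library f/f 3, Cyp2e1, Cyp2a5, Adipoq, Fabp4 and Cidec in library f/f 1, and Cyp26b1 in library f/f 1 stands with the d/d libraries.

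Genes that feed, control or follow these enzymes, and genes related to those, were read from 9 lists. Together the lists hold 119 genes, 88 of them tested. Of these, 8 rose and 5 fell, or 14.8% of the 88, where 11.0% of all features passed in either direction. The number passing was 13 without library f/f 1, 6 and 7 without libraries d/d 1 and 2, 3 without library f/f 3 or library d/d 3, and 1 without library f/f 2. The median log2 change over the 88 was 0.07, against -0.36 over the 46 enzymes.

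The receptor and its partner for foreign aromatic compounds moved in opposite directions. Ahr, the aryl hydrocarbon receptor, was at 7.63, 7.31 and 7.37 FPKM across f/f and at 13.6, 13.0 and 12.6 in d/d. It rose 1.76-fold, with little spread in either group (log2 change 0.74, SE 0.10, limma adjusted p = 0.0109). Arnt, which pairs with it on DNA, was at 25.6, 25.9 and 26.8 FPKM across f/f and at 17.0, 19.5 and 17.2 in d/d, a 1.46-fold fall (log2 change -0.52, SE 0.10, limma adjusted p = 0.0231). Both calls were lost without library f/f 2 (adjusted p = 0.0561 and 0.0936), and that of Arnt also without library f/f 3 (0.0844), library d/d 1 (0.0703) or library d/d 3 (0.0709). The other 7 tested genes of that list did not pass. Nqo1, a quinone reductase often induced through the same receptor or through Nfe2l2, fell 2.81-fold, from 13.6 ± 2.83 to 4.85 ± 2.45 FPKM (SD, n = 3 per group; limma adjusted p = 0.0362). Its call was lost without library f/f 2 (adjusted p = 0.126), library f/f 3 (0.105), library d/d 2 (0.0874) or library d/d 3 (0.107). Cbr3, a carbonyl reductase of the same list, rose 1.81-fold (limma adjusted p = 0.0136), a call lost without library f/f 2 (0.0564) or library f/f 3 (0.0513). The other 12 tested did not pass.

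None of the 11 electron donors and other P450 partners passed (limma, with 0 higher and 1 lower at an unadjusted p under 0.05, against the 15.4% and 14.2% of all features). Cytochrome b5 (Cyb5a) was at 157 ± 21.0 FPKM across f/f and 143 ± 26.4 in d/d, and its reductase Cyb5r3 at 309 ± 17.7 and 291 ± 62.8 (SD, n = 3 each). Of 7 tested genes of sulfate donor supply, 1 rose, where 6.04% of all features rose. Slc35b2, which carries the sulfate donor into the Golgi, rose 1.60-fold, from 35.2 ± 3.32 to 56.4 ± 1.51 FPKM (SD, n = 3 per group; limma adjusted p = 0.0135). That call was lost without library f/f 2 (adjusted p = 0.0604). Any bearing on the donor available to the Sult enzymes was not tested. Of 5 tested genes of nucleotide sugar supply and transport, not all of them specific to glucuronidation, 2 fell, where 4.97% of all features fell. These were the carriers Slc35d1 (1.66-fold, limma adjusted p = 0.0469) and Slc35d2 (1.79-fold, adjusted p = 0.0481). Both calls were lost whichever single library was left out (adjusted p = 0.0784 to 0.148). Of 6 deconjugating enzymes 1 rose, the lysosomal glucuronidase Gusb, from 26.3 ± 5.14 to 46.9 ± 1.92 FPKM (SD, n = 3 per group; limma adjusted p = 0.0216). It held without library f/f 1 or 2 and was lost when any of the other 4 libraries was left out (adjusted p = 0.0620 to 0.0741). None of 7 efflux transporters passed (limma, with 1 higher and 1 lower at an unadjusted p under 0.05), and their most abundant genes Abcc5 and Abcg2 were at 35.6 ± 4.18 and 33.9 ± 4.33 FPKM across f/f and 25.4 ± 6.23 and 33.6 ± 6.18 across d/d (SD, n = 3 each).

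Of 13 tested alcohol and retinol dehydrogenases and related reductases, 3 rose and 1 fell, where 6.04% of all features rose and 4.97% fell. Adh5, the formaldehyde-clearing dehydrogenase, was at 84.1, 145 and 159 FPKM across f/f and at 63.4, 44.9 and 64.1 in d/d. It fell 2.25-fold with no overlap, library f/f 1 being the lowest of its group as for Aldh7a1 (log2 change -1.12, SE 0.27, limma adjusted p = 0.0430), and leaving out any library except f/f 1 ended the call (adjusted p = 0.0842 to 0.139). Rdh10, the main retinol oxidising enzyme of the embryo, rose 1.81-fold, from 27.1 ± 3.98 to 49.1 ± 5.73 FPKM (SD, n = 3 per group; limma adjusted p = 0.0172), and Rdh14 rose 1.55-fold (adjusted p = 0.0395), a call lost whichever single library was left out (0.0663 to 0.120). The Rdh10 call was lost without library f/f 2 (0.0725), library d/d 1 (0.0528) or library d/d 3 (0.0584). Rdh16 was at 0.0556, 0.0371 and 0.0396 FPKM across f/f and at 2.01, 2.05 and 4.26 in d/d, far apart but so low in f/f that no fold is given (log2 change 1.80, SE 0.29, limma adjusted p = 0.0145), and it did not pass without library f/f 2 (0.0592) or library f/f 3 (0.0532). Without library d/d 3 its mean was under 1 FPKM and it was not tested. Of 16 steroid dehydrogenases and reductases, 1 rose, Hsd17b12, which elongates fatty acids and can reduce estrone (1.47-fold, limma adjusted p = 0.0279), and 15 did not pass. Its call held without library f/f 1 and was lost when any of the other 5 libraries was left out (adjusted p = 0.0533 to 0.0874).

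**Figure D5:**
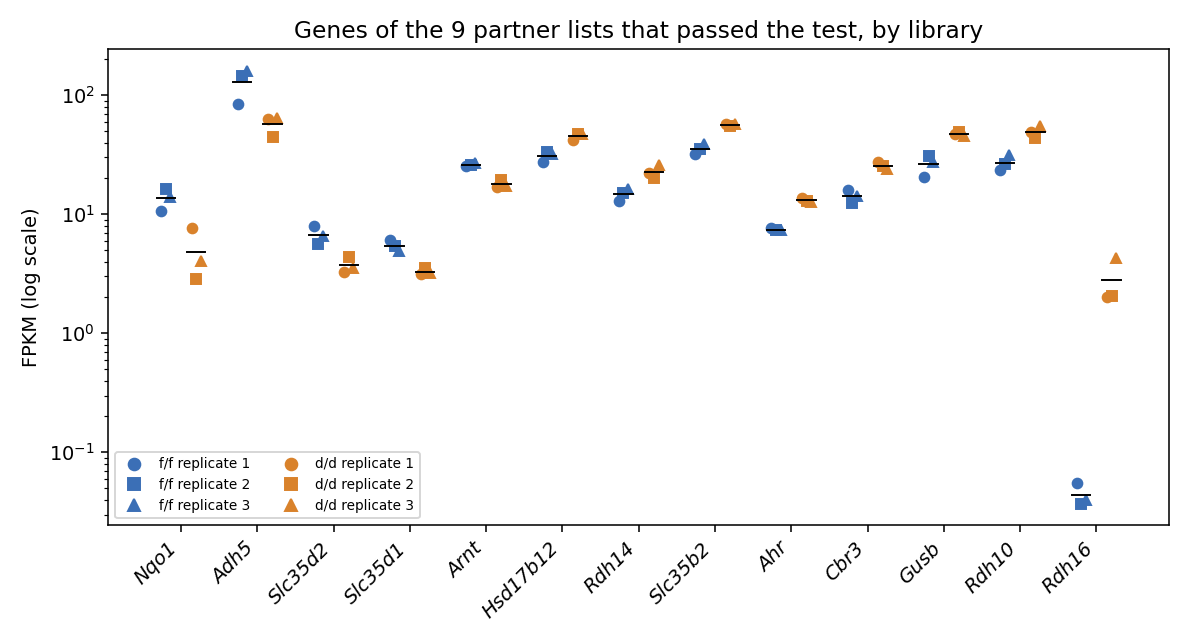
FPKM on a log scale in each library for the 13 genes of the 9 partner lists that passed the test, ordered by log2 change from lowest to highest, f/f in blue, d/d in orange and group means as black lines. Nqo1, Adh5, Slc35d2, Slc35d1 and Arnt are lower in d/d and the other 8 higher, with no overlap between the groups. The genes were picked by a test of these same values, so the lack of overlap adds no support. Of all features tested, 35.6% do not overlap.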

How the data were processed

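RNA from whole oviducts was sequenced in 3 Mettl3 f/f and 3 Mettl3 d/d libraries. The deposited values are taken to be FPKM, an inference from their size and steps, and the submitters' processing notes name HISAT2 2.2.1, Cufflinks 2.2.1 and the builds mm9 and mm10, without saying which build was used. Annotation and strand setting: not given in the sources used here. Each of 55483 features had a symbol, and 114 symbols carried by several features were summed, leaving 55363. Ensembl IDs matched GENCODE M21 (GRCm38) for 55137 features (99.4%), which gave the coordinates printed.

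The log2 of FPKM + 1 was fitted with limma 3.58.1 in R 4.3.3, on the 15438 features with a mean of at least 1 FPKM over the 6 libraries, as d/d minus f/f without a replicate block. A feature passed at a Benjamini-Hochberg adjusted p under 0.05 over all features. Fold changes are ratios of mean FPKM, and log2 changes are on the log2(FPKM + 1) scale, which understates the change of low genes. The script was tested on simulated data. No label states that replicates came from separate animals. The p-values therefore reflect only how these libraries vary, which may be technical variation. FPKM give no counts, so the fragment totals are estimates from the lowest steps and no counting interval is given.

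The members and lists were chosen with earlier results of these data known. Genes named were the members that passed, the 2 most abundant tested members of each role group that did not, and members at a mean of at least 1 FPKM in one group with 2 or more libraries of the other at 0. From each partner list, up to 3 genes past the threshold by size of change were named, or the 2 most abundant where none passed. Of the genes with values, Aldh1a7, Aldh1l2, Aldh5a1, Aldh16a1, Cyp1a1, Cyp17a1, Cyp2a5, Cyp2b10, Cyp2e1, Cyp4b1, Cyp4f17, Cyp4f18, Cyp4v3, Cyp46a1, Cyp4x1os, Sult1e1, Ugt1a6b, Ugt1a7c, Rdh14, Aldh3b2, the single marker genes and the overlapping genes fall outside this rule and were chosen after their values were seen.

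Sharing of sequence was measured as the percent of a gene's transcript windows of 50 nt found in transcripts of another gene of GENCODE M21. Promoter windows came from RefSeq (GRCm38.p6).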

Additional observations from a re-analysis of the deposited data

How the results depend on the processing

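Of the 10 members that fell, all kept a log2 change below 0 under every alternative run, which were a pseudocount of 0.1, no filter on low values, quantile normalization, median of ratios scaling, a replicate block, and libraries left out. With no filter, 6 members passed (6 lower), of which 4 are among the 10 and 2, Aldh3b2 and Cyp2j13, were otherwise not tested, and 1107 of all features and 8 partner genes passed, more features being tested. With a replicate block, 1 member passed (1 lower, Sult5a1), with 276 of all features and 0 partner genes. Deviations of same-numbered libraries from their group means correlated at -0.22, -0.058 and 0.003, and those of other pairs at -0.28 to 0.28. With 3 libraries per group these values cannot show whether a number marks a shared litter, day or batch. The block also costs degrees of freedom. Leaving out single libraries gave 1 to 12 members passing (1 to 11 lower, 0 to 1 higher), 308 to 1795 of all features and 1 to 13 partner genes, with fewer samples in each fit. One member passed as higher under quantile normalization (1, Ugt1a7c) and without both libraries numbered 1 (1, Cyp26b1). Signs turned only in genes that did not pass to begin with: without both libraries numbered 1, the log2 change was -0.15 for Aldh1b1, 0.15 for Cyp2d22, 0.99 for Cyp2s1, 0.61 for Cyp2b10, 0.11 for Cyp46a1 and -0.10 for Cyp4f16, and under quantile normalization 0.0064 for Cyp2r1 and -0.0096 for Ugt1a1, and under median of ratios scaling -5.8e-05 for Cyp4v3. Leaving out single libraries gave log2 changes of -0.043 to 0.30 for Aldh3b1, -0.094 to 0.10 for Cyp2d22, -0.11 to 0.031 for Cyp2r1, -1.18 to 0.031 for Cyp2b10, -0.058 to 0.038 for Cyp4v3, -1.12 to 0.39 for Cyp2s1, -0.14 to 0.17 for Cyp39a1, -0.057 to 0.37 for Cyp4f13, -0.076 to 0.20 for Cyp4f16, -0.00032 to 0.34 for Sult4a1, -0.19 to 0.31 for Ugt1a1, -0.26 to 0.049 for Cyb5r3 and -0.15 to 0.10 for Abcg2. The cause of these shifts was not tested. The family sums kept their direction without any single library except the Ugt sum, whose d/d over f/f ratio ran from 0.855 to 1.16. Depth limits the members under 1 FPKM, which rest on few fragments.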
